A study of Mus musculus with 4 samples.

Results

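The circadian clock genes of pancreatic islet ILC2 were followed between fed and fasted mice. The set held 10 genes chosen by name out of 15835 genes in the count table: the period genes Per1, Per2 and Per3, the cryptochrome Cry1, the activator Arntl (also called Bmal1), the repressors Nr1d1, Nr1d2 and Bhlhe40, and the output factors Dbp and Tef. All 10 had a row in the table, 7 passed the filter on low counts and were tested, and Per2, Per3 and Dbp had too few counts. ILC2 are group 2 innate lymphoid cells, tissue-resident lymphocytes that make type 2 cytokines. They came from the islets of Langerhans of C57BL/6j mice that were either fed or fasted, with 4 libraries in each group. All mice carried the same strain background and no other treatment is named. The length of the fast, the age and sex of the mice, the clock time at which tissue was taken, and whether each library came from a separate mouse are not given in the sources used here. A difference of treatment and a difference of sampling time can therefore not be told apart, and p-values measure only the spread between libraries, which may be partly technical.

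The clock is a transcription loop. ARNTL pairs with CLOCK on E-box sequences and switches on the Per, Cry, Nr1d, Dbp and Tef genes. PER and CRY proteins then return to the nucleus and inhibit that pair, while the NR1D nuclear receptors repress Arntl through ROR elements. DBP, TEF and HLF, the PAR bZIP factors, pass the rhythm on through D-box sequences. BHLHE40 competes for E-boxes. In tissues outside the brain the timing of food is a strong cue for this loop, and Per1 can also be induced directly by glucocorticoids and by cyclic AMP.

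The libraries differed in depth and in the RNA of other cells. Totals ran from 1797504 to 25252366 counts, and levels are given as CPM, the depth-scaled form of counts, here over library sizes scaled with TMM factors. The 12 listed ILC2 markers took 0.117% to 0.416% of counts in fed and 0.147% to 0.629% in fasted libraries, and Gata3, the lineage factor, stood at 225 ± 82.2 CPM and 223 ± 32.2 CPM (SD, n = 4 each). Rora, which encodes a receptor that both drives Arntl and is required for ILC2 development, had 6 counts in all 8 libraries together. The 21 matched markers of acinar cells, the enzyme-secreting cells around the islets, took 41.1% to 71.6% of counts in fed libraries. In fasted libraries they took 2.91% in library 1 and 3.23% in library 3, but 66.7% in library 4 and 67.8% in library 5. Libraries 1 and 3 of the fasted group thus stood apart, and the fold changes and ratios described below are also given without them. The 7 matched T cell markers summed to 41.0 to 58.2 CPM in fed and 66.0 to 81.4 CPM in fasted libraries without overlap, most of it Cd3g and Lef1. Of the rest, Cd3e had 32 counts in fed and 118 in fasted libraries, Cd3d 9 and 11, and Tcf7 10 and 16. Cd8a had 11 and 0, at 0 in 6 libraries, and Cd8b1 had 4 and 2. On CPM of library totals the T cell sums overlapped, at 22.0 to 55.6 in fed and 45.4 to 170 in fasted libraries. The 4 B cell markers overlapped on the TMM scale (0.68 to 5.69 and 3.12 to 11.6 CPM) but not on library totals (0.854 to 3.34 and 4.34 to 7.35). The 9 myeloid markers took 1.11 to 16.1 and 2.68 to 128 CPM of library totals. The part of these cells in the clock values was not tested beyond the settings named here. In bulk RNA, fewer cells of a type and less RNA per cell cannot be told apart.

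No clock gene passed the test between fasted and fed libraries. By edgeR's quasi-likelihood test with Benjamini-Hochberg adjustment over 7700 genes, 0 of the 7 tested members had an adjusted p under 0.05, against 0.0% of all tested genes. At an unadjusted p under 0.05, 2 of the 7 were higher in fasted libraries, Per1 and Tef, and 0 were lower; 4.39% of all tested genes reached that level in either direction. The same 2 members were the ones whose fed and fasted libraries did not overlap, as was so for 3.52% of all tested genes. DESeq2 called 0.137% of the genes it adjusted and 0 members, with 2 members at an unadjusted p under 0.05, and limma-voom called 0 genes. Of the 7 members, 3 had a positive and 4 a negative log2 fold change (fasted minus fed), with a median of -0.03, beside a median of -0.0017 over all tested genes. Without fasted libraries 1 and 3, where Per2 also passed the filter, 6 of 8 were positive and 2 negative with a median of 0.13, and again 0 passed and 2 had an unadjusted p under 0.05, Per1 and Tef, beside 2.97% of all genes tested in that setting.

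**Figure D1:**
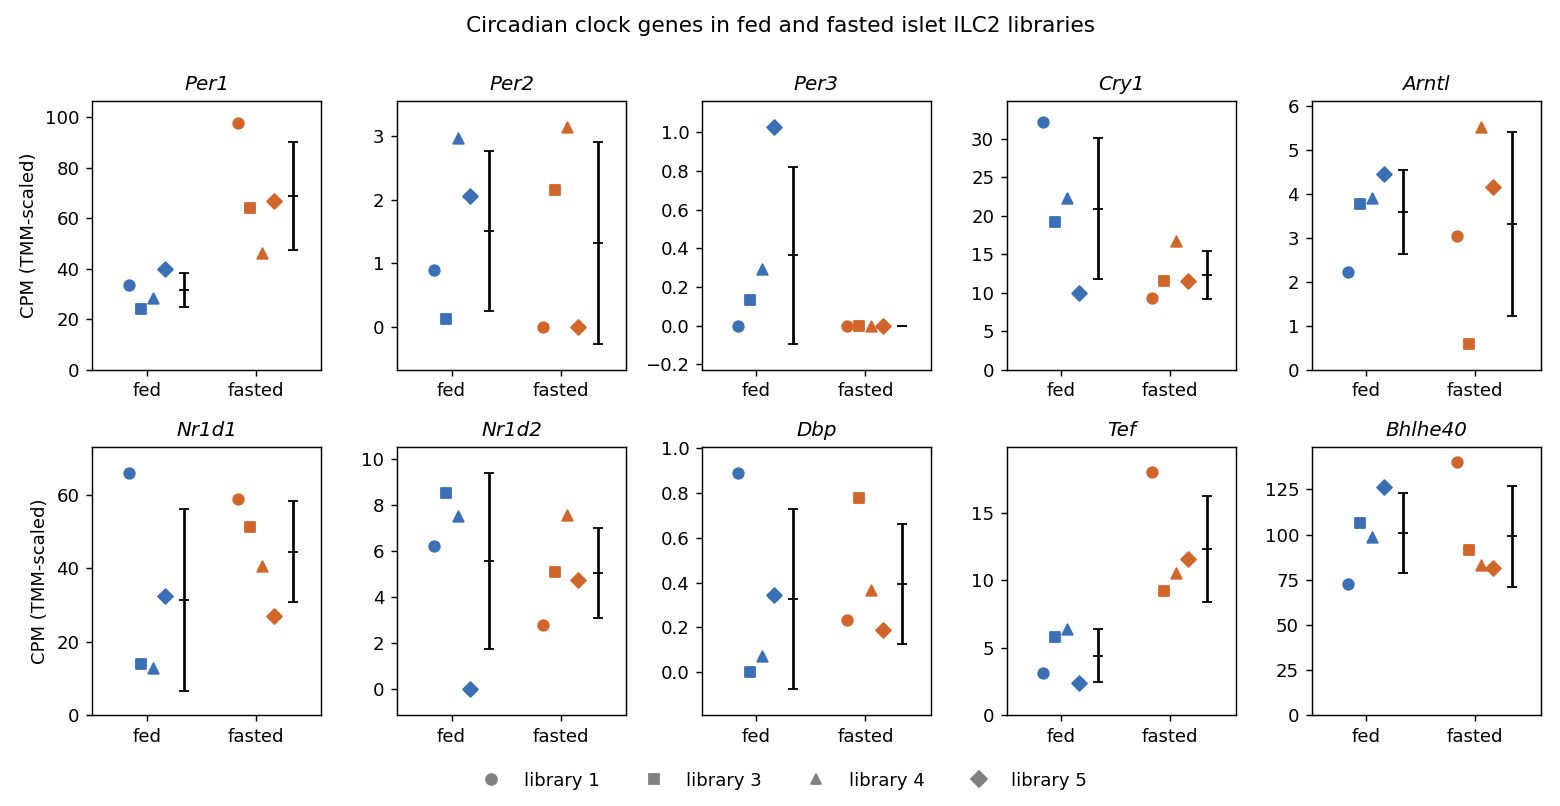
Levels of the 10 clock genes as CPM on TMM-scaled library sizes, 1 panel per gene with its own axis. Points are libraries (shape gives the library number), and bars to their right show the mean ± SD of 4 libraries. Per1 and Tef stood higher in every fasted library than in any fed library, and the other 8 panels overlap.

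Per1, a period gene that outside signals can induce directly, was the tested member with the smallest p. In fed libraries 1, 3, 4 and 5 it stood at 33.5, 24.2, 28.3 and 39.7 CPM, from 75, 179, 383 and 116 counts. In fasted libraries 1, 3, 4 and 5 it stood at 97.5, 64.2, 46.1 and 66.7 CPM, from 417, 329, 250 and 352 counts. The lowest fasted library lay above the highest fed library, and fasted library 1 was the highest. Means were 31.4 ± 6.70 and 68.6 ± 21.4 CPM, 2.18 times as high in fasted libraries. The log2 fold change was 1.13 ± 0.28 (SE), with an unadjusted p of 0.0019 and a Benjamini-Hochberg adjusted p of 0.54 by edgeR, and the fasted library was higher in 4 of 4 pairs with the same library number. In fasted libraries 4 and 5, whose acinar share lay within the fed range, Per1 was above every fed library on the TMM scale. Without fasted libraries 1 and 3 the fold change was 0.85 ± 0.34 (edgeR, unadjusted p = 0.030, adjusted p = 1.00), and with the acinar share as a covariate 0.89 ± 0.30 (unadjusted p = 0.012). When only library totals were used for scaling, the Per1 ranges did overlap, at 15.2 to 41.7 CPM of library totals in fed and 31.9 to 204 in fasted libraries. Fasted libraries 4 and 5 then lay within the fed range. That scaling moved the median of all tested genes to 0.51 on the log2 scale, and Per1 stood at 1.81 under it. Per1 lies on chromosome 11 at 69095217 to 69109960 on the plus strand of GRCm38 (mm10).

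Tef, a PAR bZIP activator whose own gene is under clock control, had the largest fold change of the tested members. It stood at 3.12, 5.82, 6.36 and 2.40 CPM in fed libraries 1, 3, 4 and 5, from 7, 43, 86 and 7 counts. It stood at 18.01, 9.17, 10.5 and 11.6 CPM in fasted libraries 1, 3, 4 and 5, from 77, 47, 57 and 61 counts. Every fasted library was above every fed library, and again fasted library 1 was the highest. Fed libraries 1 and 5 rest on few counts. Means were 4.42 ± 1.96 and 12.3 ± 3.92 CPM, a log2 fold change of 1.42 ± 0.43 (SE; edgeR, unadjusted p = 0.0071, Benjamini-Hochberg adjusted p = 0.79). On the TMM scale the acinar-rich fasted libraries 4 and 5 were above all fed libraries. Without fasted libraries 1 and 3 the fold change was 1.27 ± 0.55 (edgeR, unadjusted p = 0.040). On library totals alone the ranges overlapped, at 1.67 to 7.34 CPM of library totals in fed and 6.51 to 37.7 in fasted libraries. Fasted libraries 4 and 5 then lay within the fed range. Tef lies on chromosome 15 at 81802421 to 81826863 on the plus strand.

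Cry1, the cryptochrome that closes the loop with PER proteins, went the other way without passing. Fed libraries 1, 3, 4 and 5 had 32.1, 19.2, 22.2 and 9.93 CPM, and fasted libraries had 9.36, 11.5, 16.8 and 11.6 CPM. Fed library 5 lay among the fasted values, and the other 3 fed libraries were above all fasted ones. Means were 20.9 ± 9.14 and 12.3 ± 3.15 CPM, a log2 fold change of -0.76 ± 0.37 (SE; edgeR, unadjusted p = 0.067, Benjamini-Hochberg adjusted p = 1.00). The value was -0.98 without fed library 5, -0.49 without fed library 1 and -0.55 ± 0.48 without fasted libraries 1 and 3 (edgeR, unadjusted p = 0.28), and stayed negative in all 20 alternatives, 3 of which gave an unadjusted p under 0.05. Cry1 lies on chromosome 10 at 85131700 to 85185064 on the minus strand.

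Per1, Tef and Cry1 are shown with the E-box found near their starts, since these are the members with the largest fold changes in either direction. RefSeq promoter windows on GRCm38.p6, from 250 bases before to 50 bases after a start, were given for 8 members in 11 windows. The letters CACGTG, an E-box that reads the same on both strands, occurred in 4 of the 11 windows, which belong to 3 of the 8 members, and in 7.15% of all 32851 windows of that length. The sequences below run 5′ to 3′ on the gene's strand, with the E-box in capitals. The first base of the E-box lay at -166 from the start of a Per1 window, and the other Per1 window did not hold it. It lay at -127 and -138 from the starts of the pair of Tef windows, and at -60 from the Cry1 start.
Per1, chr11:69098771-69098800, plus strand: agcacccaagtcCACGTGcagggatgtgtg
Tef, chr15:81802534-81802563, plus strand: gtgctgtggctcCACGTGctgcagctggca
Tef, chr15:81811264-81811293, plus strand: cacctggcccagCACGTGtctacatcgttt
Cry1, chr10:85185097-85185126, minus strand: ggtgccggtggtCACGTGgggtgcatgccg
The same letters lay before RefSeq starts of genes with positive and with negative fold changes, none of which passed. A link between the letters and the levels was not tested. By the gene spans given above, the Per1 and Tef stretches lie inside the gene, and that of Cry1 before it. D-box letters (TTATGTAA or TTACGTAA, on either strand) occurred in 1.06% of all windows and in 1 of the 11, that of Per3, at -205 and -158. They are printed because Per3 is the member that was at 0 in every fasted library.
Per3, chr4:151044852-151044881, minus strand: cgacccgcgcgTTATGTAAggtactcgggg
Per3, chr4:151044805-151044834, minus strand: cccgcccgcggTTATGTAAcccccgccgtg
ROR element letters (ANTAGGTCA or ANTGGGTCA, on either strand) occurred in 1.45% of all windows and in 1 of the 11, of Arntl, at 29 bases past a start. The cyclic AMP element TGACGTCA occurred in 1.79% of all windows and in 0 of the 11. A match is a stretch of letters and was not measured as a binding site.

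Per2 and Per3, the paralogues of Per1, were too scarce to be tested. Per2 had 2, 1, 40 and 6 counts in fed libraries 1, 3, 4 and 5 (0.89, 0.14, 2.96 and 2.06 CPM). It had 0, 11, 17 and 0 counts in fasted libraries 1, 3, 4 and 5, or 2.15 and 3.13 CPM in libraries 3 and 4. The counts of 0 allow up to 0.702 CPM in fasted library 1 and 0.569 CPM in fasted library 5 (3 counts, counting error only). The groups overlapped, and fasted libraries were split between none and the highest value of all 8. Per3 had 0, 1, 4 and 3 counts in the fed and 0 in each of the fasted libraries. Over the pooled fed libraries that is 0.307 CPM (exact 95% Poisson interval 0.132 to 0.604, counting error only) and over the pooled fasted libraries 0 CPM, with an upper bound of 0.184. The intervals overlap, which is no test of the difference. Fitted by edgeR with no filter on low counts, Per3 stood at -4.13 ± 1.89 on the log2 scale (fasted minus fed; Benjamini-Hochberg adjusted p = 0.68, unadjusted p = 0.038). That value depends on the prior count, since every fasted library was at 0. DESeq2 gave Per3 an unadjusted p of 0.25. Per3 also lies within the span of Camta1 on the same strand, where the split of reads between genes is uncertain.

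Whether Per1 differed in its response from its paralogues was compared by count ratios within each library. These use no scaling between libraries, but where a count is 0 they change with depth. The log2 Per1/Per2 ratio (with 0.5 added to each count) was 4.81 ± 1.56 in fed and 6.96 ± 3.06 in fasted libraries, a difference of 2.16 (exact two-sided permutation p = 0.29, adjusted over 6 ratios 0.57). The fasted ratios were 9.71 and 9.46 in the libraries with no Per2 count, and 4.84 and 3.84 in the other 2, within the fed range of 3.24 to 6.90. The Per1/Per3 ratio did not overlap, at 5.06 to 7.24 in fed and 8.97 to 9.71 in fasted libraries (p = 0.029 by the exact permutation test, whose 70 assignments allow none smaller; adjusted p = 0.17). With Per3 at 0 in all fasted libraries and in fed library 1, those ratios are set by the Per1 counts and the added 0.5 alone. They therefore rise with depth as well as with the Per1 level, so the lack of overlap does not show a difference between the genes. The Per2/Per3 ratio had a difference of 0.82 (exact permutation p = 0.66). Without fasted libraries 1 and 3 the differences were 1.84 for Per1/Per2, 2.81 for Per1/Per3 and 0.97 for Per2/Per3 (exact permutation p = 0.53, 0.067 and 0.73), where 15 assignments allow no p below 0.067. For 1 ratio alone at the smallest p the adjusted value cannot go below 0.17, so this family could pass only with several ratios at it.

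Arntl, the activator of the loop, was low and did not separate the groups. It stood at 2.23, 3.79, 3.92 and 4.45 CPM in fed libraries 1, 3, 4 and 5, and at 3.04, 0.585, 5.53 and 4.17 CPM in fasted libraries 1, 3, 4 and 5. The fasted values ran on both sides of the fed ones, with fasted library 3 (3 counts) the lowest and fasted library 4 the highest of all 8. The log2 fold change was -0.12 ± 0.63 (SE; edgeR, Benjamini-Hochberg adjusted p = 1.00), and turned to 0.22 without fasted library 3 and to 0.42 without fasted libraries 1 and 3. Its partner genes were scarcer: Clock had 25 counts in fed and 14 in fasted libraries, and its paralogue Npas2 had 71 and 48, summed over libraries of unequal depth.

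Nr1d1 and Nr1d2 encode REV-ERB alpha and beta, the heme-binding repressors of Arntl. Nr1d1 stood at 66.0, 13.9, 13.0 and 32.5 CPM in fed libraries 1, 3, 4 and 5. In fasted libraries 1, 3, 4 and 5 it stood at 59.0, 51.3, 40.7 and 27.1 CPM. The fasted values lay inside the fed range because fed library 1 was the highest of all. The log2 fold change was 0.53 ± 0.50 (SE; edgeR, unadjusted p = 0.31, Benjamini-Hochberg adjusted p = 1.00), and it was positive in all 20 alternatives but ran from 0.14 without fasted libraries 1 and 3 to 1.19 ± 0.42 without fed library 1 (unadjusted p = 0.017). The 3′ end of Nr1d1 overlaps that of Thra, a thyroid hormone receptor gene on the other strand, over 1075 bases. Since a strand setting of the counting is not stated, reads there cannot be assigned with certainty; Thra had 135 counts in all, against 522 in fed and 879 in fasted libraries for Nr1d1. Nr1d2 had 14, 63, 102 and 0 counts in fed libraries 1, 3, 4 and 5 (6.25, 8.52, 7.54 and 0 CPM, the last allowing up to 1.03). Fasted libraries 1, 3, 4 and 5 had 2.81, 5.07, 7.56 and 4.74 CPM. The groups overlapped fully, at a log2 fold change of -0.17 ± 0.78 (SE), which turned to 0.13 ± 0.85 with the replicate block and lay between -0.65 and 0.13 over 20 alternatives.

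The within-library Nr1d1/Nr1d2 ratio differed by 0.03 on the log2 scale (exact permutation p = 1.00) and took either sign when a library was left out; without fasted libraries 1 and 3 it was -0.65 (exact permutation p = 0.87). Nr1d1 against its target Arntl gave log2 ratios of 4.75, 1.86, 1.72 and 2.82 in fed libraries 1, 3, 4 and 5. The fasted ratios were 4.23, 6.23, 2.86 and 2.67. The groups overlapped, with fed libraries 1 and 5 above the lowest fasted ratio, and the difference of 1.21 did not pass (exact permutation p = 0.29, adjusted p = 0.57). Without fasted libraries 1 and 3 the difference was -0.02 (exact permutation p = 1.00).

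Dbp, a PAR bZIP factor often used as a clock readout, was barely detected. It had 2, 0, 1 and 1 counts in fed libraries 1, 3, 4 and 5, while the fasted libraries had 1, 4, 2 and 1. Pooled levels were 0.153 CPM (exact 95% Poisson interval 0.0418 to 0.393) in fed and 0.398 CPM (0.172 to 0.784) in fasted libraries, and the intervals overlap. Its 3′ end overlaps Sphk2, a sphingosine kinase gene on the other strand, over 737 bases. The Dbp/Tef ratio, with so few Dbp counts, differed by -0.69 on the log2 scale (exact permutation p = 0.69), and by -0.89 without fasted libraries 1 and 3 (exact permutation p = 0.73).

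Bhlhe40, the E-box repressor also called DEC1, differed little between the groups. It stood at 72.7, 107, 98.4 and 126 CPM in fed libraries 1, 3, 4 and 5, from 163 to 1332 counts. It stood at 140, 91.5, 83.0 and 81.5 CPM in fasted libraries 1, 3, 4 and 5, from 430 to 600 counts. The group means of 101 ± 22.1 and 99.1 ± 27.9 CPM lay within each other's spread, and the log2 fold change was -0.03 ± 0.26 (SE; edgeR, Benjamini-Hochberg adjusted p = 1.00). Fasted library 1 was the highest of all 8 and the other 3 fasted libraries lay between the lowest and the second lowest fed value. The value was -0.25 without fasted library 1 and -0.30 ± 0.32 without fasted libraries 1 and 3. Its paralogue Bhlhe41, too scarce to be tested, had 14 counts in fed and 2 in fasted libraries. Of the 14, 9 were in fed library 3 and 4 in fed library 5.

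**Figure D2:**
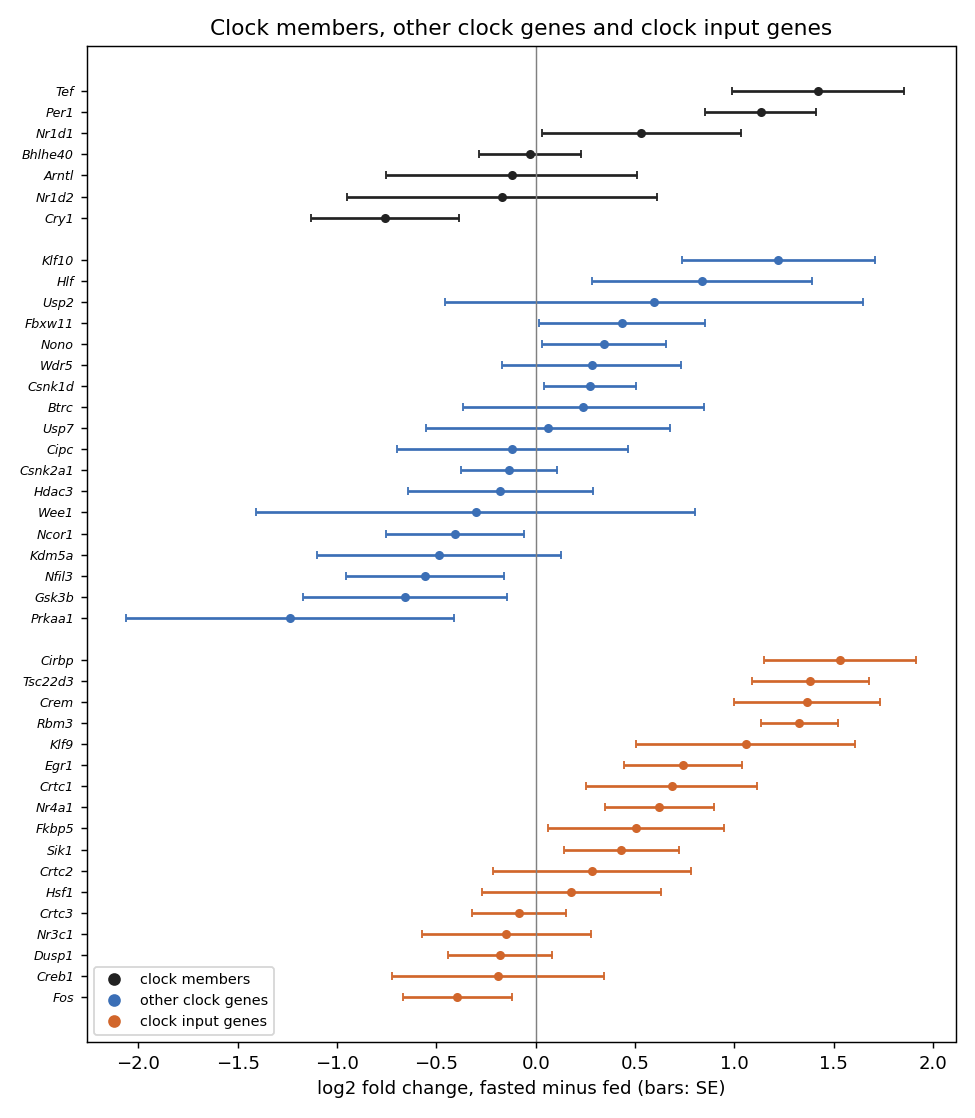
Log2 fold change (fasted minus fed, edgeR, bars are SE) of the 7 tested clock members (black), 18 other clock genes (blue) and 17 clock input genes (orange). Tef and Per1 lead the members and Cirbp, Tsc22d3, Crem and Rbm3 the input genes; no gene shown had an adjusted p under 0.05 by edgeR.

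Beyond these members, 34 of 35 other listed clock genes were in the table and 18 were tested. Of these 9 had a positive and 9 a negative log2 fold change, with a median of -0.03, and 0 passed. At an unadjusted p under 0.05, reached by 4.39% of all tested genes in either direction, 1 was higher and 0 were lower. That gene was Klf10, a zinc finger repressor under clock control, at 6.25, 2.71, 4.29 and 5.82 CPM in fed libraries 1, 3, 4 and 5. In fasted libraries 1, 3, 4 and 5 it stood at 20.6, 6.83, 8.48 and 7.77 CPM. The groups did not overlap, as was so for 3.52% of all tested genes, but fasted library 1 was far above the rest. The fold change of 1.22 ± 0.49 (edgeR, unadjusted p = 0.029) was 0.80 ± 0.55 without fasted libraries 1 and 3 (unadjusted p = 0.18). Without that pair of libraries, 24 genes of the list were tested and 0 had an unadjusted p under 0.05, beside 2.97% of all genes tested in that setting.

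Hlf, the third PAR bZIP factor, stood at 4.46, 21.4, 10.6 and 2.06 CPM in fed libraries 1, 3, 4 and 5. It stood at 15.7, 17.0, 21.9 and 16.7 CPM in fasted libraries 1, 3, 4 and 5. Fed library 3 lay among the fasted values, and the other 3 fed libraries below them, at a log2 fold change of 0.84 ± 0.56 (SE; edgeR, unadjusted p = 0.16). With the replicate block it was 1.24 ± 0.52 (unadjusted p = 0.046, adjusted p = 0.71), and without fasted libraries 1 and 3 it was 0.95 ± 0.70. Nfil3, the repressor that competes with PAR bZIP factors for D-boxes, had -0.56 ± 0.40, with overlapping groups, and -0.37 ± 0.51 without that pair of libraries. The kinase genes Prkaa1 (an AMPK catalytic subunit), Gsk3b and Csnk1d, which phosphorylate clock proteins, had -1.23 ± 0.83, -0.66 ± 0.51 and 0.27 ± 0.23, and without the pair -1.20 ± 1.12, -0.24 ± 0.60 and 0.16 ± 0.33. Among the 16 listed clock genes in the table that were too scarce to test were Cry2 and Ciart, a repressor listed as Gm129. Cry2 had 28 counts in fed and 35 in fasted libraries, summed over libraries of unequal depth. Ciart had 37 and 64, but all 37 were in fed library 4 and 55 of the 64 in fasted library 1.

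The clock input genes were a list of 18 genes that carry or respond to glucocorticoid, cyclic AMP or temperature signals. In all, 17 of them were tested. Of these 12 had a positive and 5 a negative log2 fold change, with a median of 0.51, beside -0.0017 over all tested genes, and 0 passed by edgeR. At an unadjusted p under 0.05, 6 were higher and 0 lower, where 4.39% of all tested genes reached that level. They were the cold-inducible RNA-binding protein genes Rbm3 (1.33 ± 0.20) and Cirbp (1.53 ± 0.38), the glucocorticoid target Tsc22d3 (1.38 ± 0.29), the cyclic AMP repressor Crem (1.36 ± 0.37) and the immediate early genes Egr1 (0.74 ± 0.30) and Nr4a1 (0.62 ± 0.27). Rbm3 and Tsc22d3 had an adjusted p of 2.61e-05 and 0.048 by DESeq2. Without fasted libraries 1 and 3, 11 of 17 were positive with a median of 0.25. Of the 17, 5 had an unadjusted p under 0.05, beside 2.97% of all genes tested in that setting. Egr1 and Nr4a1 then stood at 0.21 ± 0.29 and 0.23 ± 0.32, and the other 4 between 1.16 and 1.37. To these 4 came Klf9, at 1.44 ± 0.60 (edgeR, unadjusted p = 0.036). With all libraries Klf9 stood at 1.06 ± 0.55 (edgeR, unadjusted p = 0.084). The list was made with earlier results of these data known, so its direction is a description.

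The tested genes most like Per1 over the 8 libraries, by Pearson's r of log2 CPM, were AI462493 (0.97), Cirbp (0.96), Lef1, a lymphoid transcription factor gene that is also in the T cell list above (0.95), Pgs1, a cardiolipin pathway enzyme (0.95), and Carhsp1, a cold shock domain protein (0.95). Spearman's rho for these 5 ran from 0.90 to 0.98. They were picked as the highest of all tested genes, so no p is given, and the points share the split into fed and fasted libraries and the scaling factors. The fed levels of Cirbp were 38.8, 14.6, 25.4 and 49.3 CPM in libraries 1, 3, 4 and 5, with library 5 the highest and library 3 the lowest, as for Per1. In fasted libraries 1, 3, 4 and 5 Cirbp stood at 120, 101, 53.1 and 92.7 CPM, with library 1 the highest and library 4 the lowest for both genes.

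**Figure D3:**
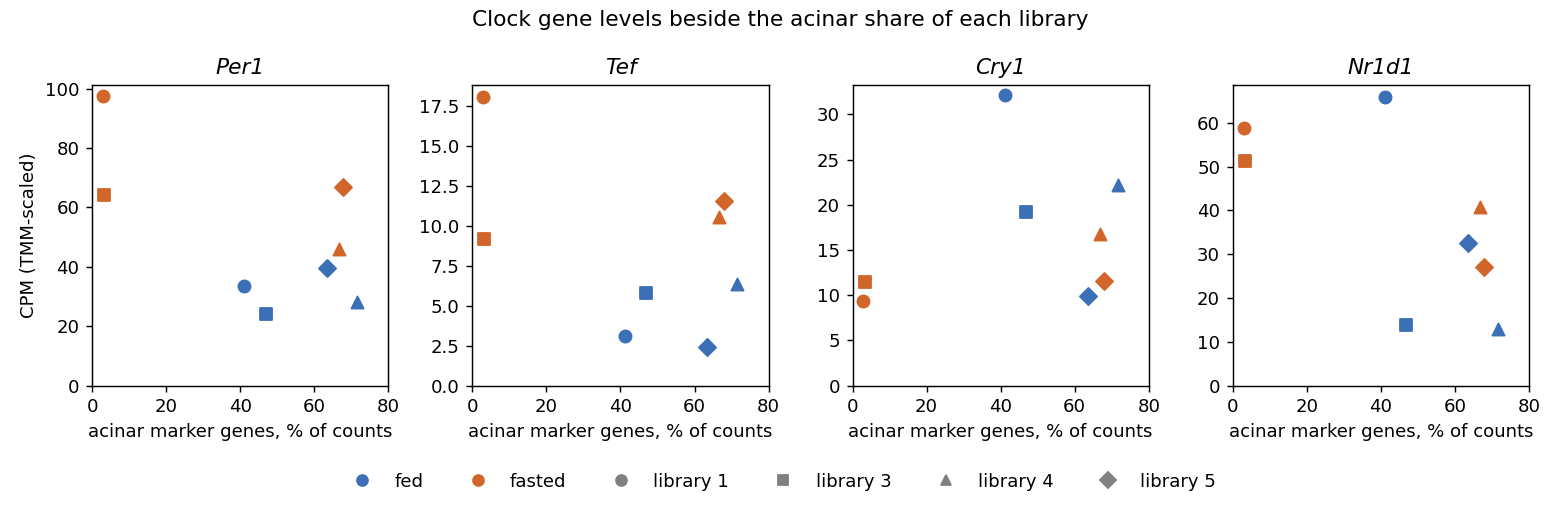
CPM of Per1, Tef, Cry1 and Nr1d1 in each library against the share of its counts in the 21 acinar marker genes (percent). Blue is fed and orange fasted. On the TMM scale shown, the acinar-rich fasted libraries 4 and 5 (66.7% and 67.8%) lay above all fed libraries for Per1 and Tef, and among them for Cry1 and Nr1d1.

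The direction of the Per1, Tef, Nr1d1 and Cry1 values was the same in all 20 alternative settings, and those of Bhlhe40, Arntl and Nr1d2 took both signs. Per1 and Tef had an unadjusted p under 0.05 in each of the 20, the largest being 0.030 and 0.040. Their smallest adjusted p was 0.18 and 0.42, both with DESeq2, so neither was called in any.

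**Figure D4:**
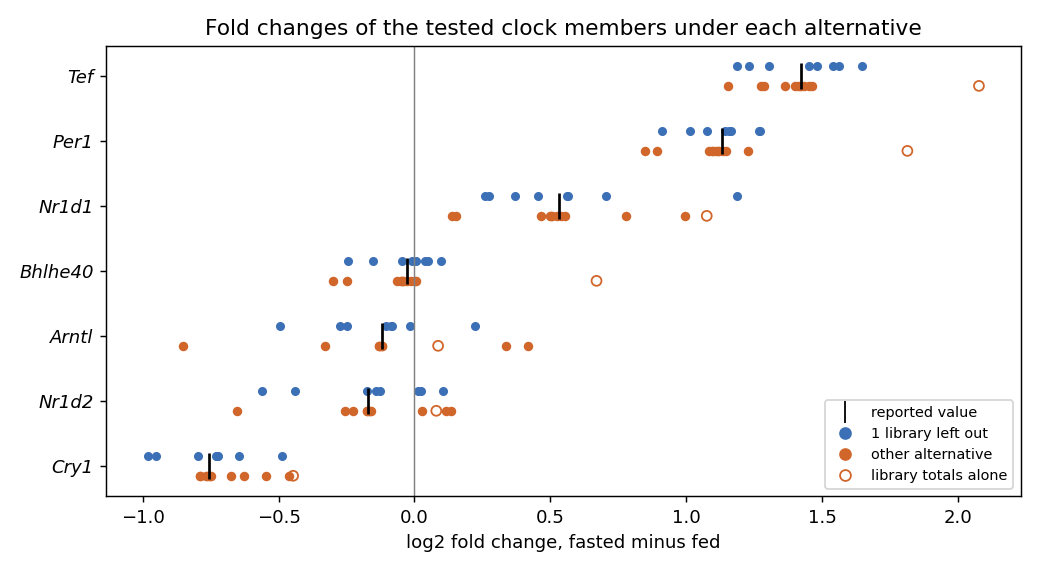
Log2 fold change (fasted minus fed) of the 7 tested members: the reported value (black bar), with each of the 8 libraries left out (blue), and in the other settings (orange; open circle for library totals alone). Tef and Per1 lay above 0 throughout, Cry1 below 0, and Bhlhe40, Arntl and Nr1d2 on both sides of 0.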

How the data were processed

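RNA of ILC2 from islets was extracted with Trizol and sequenced as barcoded CEL-seq2 libraries, a 3′ end method, per the labels' protocols. The submitters' processing notes name STAR, edgeR and mm10; versions, the counting step, its strand setting and whether reads or molecular identifiers were counted are not given in the sources used here. Raw counts were deposited by the authors, as whole numbers for each gene. The 4 sequencing files hold libraries of both treatments, so the group was read from the column name (control taken as fed), and libraries 1, 3, 4 and 5 of each group were used; 2 further columns and 11 spike-in rows were not. Any 2 libraries of a group differed beyond sampling noise (chi-square over genes, 15.0 or more for each gene on average).

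The test was the robust quasi-likelihood test of edgeR 4.0.16 (R 4.3.3; TMM factors, filterByExpr with the groups, no covariates, two-sided, Benjamini-Hochberg over 7700 genes, threshold 0.05; common coefficient of variation 0.506). The code was tested on simulated data. CPM are counts over TMM-scaled library sizes, also for untested genes, as mean ± SD. Ratios between members were compared by an exact permutation test over 70 assignments. Exact Poisson intervals (scipy 1.17.1) cover counting error only. Alternatives used DESeq2 1.42.0, limma 3.58.1, other scalings and filters, a replicate block, each library left out, acinar adjustments and thinning. Libraries with the same column number correlated in their deviations from the group means at 0.23, 0.14, 0.50 and 0.13. Fed and fasted libraries of unlike number ran from -0.40 to 0.22, so some exceeded the lower same-number values. The numbers were taken as pairs only in the replicate block and the count of pairs given for Per1, not in the main tests. The labels do not say what they mark.

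The members and gene lists were chosen with earlier results of these data known. Named genes are all 10 members, the 6 genes of smallest p in each other list, the 5 most like the member of smallest p, Gata3, and genes that overlap a member. Clock, Npas2, Cry2, Rora, Bhlhe41, Ciart, Klf9 and single marker genes fall outside this rule and were chosen after their values were seen. Coordinates are from GENCODE vM21 on GRCm38, and promoter sequences from RefSeq on GRCm38.p6. Bhlhe40 and Per2 are without a promoter sequence here.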

Additional observations from a re-analysis of the deposited data

Results flagged for a closer look

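The CPM of Bhlhe40 in fasted library 1, at 140, lay far from the other 3 fasted libraries, which held 81.5 to 91.5 CPM: its gap to the nearest was 0.83 of the group's range. It was the only such value among the 19 groups of member levels looked at, and about 1 in 20 groups shows one by chance. The same library had the highest fasted value of Per1, Tef and Nr1d1, and its acinar share was 2.91%, beside 3.23% in fasted library 3. Its myeloid markers took 128 CPM of library totals, against 19.2, 2.68 and 3.31 in fasted libraries 3, 4 and 5. Whether either bears on these values was not tested.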

How the results depend on the processing

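Over 20 alternatives, 120 of 138 member fold changes kept their sign and none was called. The exceptions were all of Arntl, Bhlhe40 and Nr1d2, whose main values were -0.12, -0.03 and -0.17. With library totals alone Arntl, Bhlhe40 and Nr1d2 turned to 0.087, 0.67 and 0.080, where the median of all tested genes was 0.51. Bhlhe40 turned to 0.0056 with limma-voom and to 0.0027 after thinning to 1797504 counts. Nr1d2 turned to 0.13 with the replicate block, and to 0.027 with the acinar covariate and 0.12 without fasted libraries 1 and 3; Arntl turned to 0.34 and 0.42 in these last settings. With each library left out in turn, Arntl ran from -0.49 to 0.22, Bhlhe40 from -0.25 to 0.10 and Nr1d2 from -0.56 to 0.10. The replicate block changed no call and gave 1.10 ± 0.23 for Per1 and 1.45 ± 0.47 for Tef. Genes called over the whole table numbered 0 in edgeR, 1 with library totals alone, 1 without a filter and 11 with DESeq2, none of them a member. Of the ratios, with a library left out, Nr1d1/Nr1d2 ran from -0.77 to 1.52, Dbp/Tef from -1.49 to 0.13 and Per2/Per3 from -0.088 to 1.62. In a setting chosen after seeing the data, without fasted libraries 1 and 3, Nr1d1/Nr1d2 turned to -0.65 and Nr1d1/Arntl to -0.023. The cause of these turns was not tested. Depth limits what can be said of Per2, Per3, Dbp and Arntl, with 77, 8, 12 and 167 counts in all libraries.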
